A study of Bos taurus with 16 samples.

Results

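Corpora lutea of cattle on day 20 of pregnancy were compared with corpora lutea on day 14, in 4 libraries of messenger RNA from each day. These are 8 of the 16 libraries of the series, whose other libraries come from days 17 and 23. Per the series' design text, the cattle were mated at estrus, inseminated again 12 hours later, and kept in the study when found pregnant, with 4 cattle a day and days counted from breeding. The groups therefore differ in the day of pregnancy alone as far as the labels go, with tissue and pregnancy shared by both. Age, breed and treatment are not given in the sources used here. No cycling cattle are analysed here, so the stage of pregnancy and the age of the gland cannot be told apart. Values are RPKM, which scale the reads of a gene to its length and to the size of its library. A gene was tested where 4 or more of these 8 libraries reached 1 RPKM, which held for 12945 of the 27233 genes in the table. Reads per library, recovered from the steps of the RPKM values, came to 28.7 to 44.6 M. Correlated across genes, which are not independent of each other, libraries had a median of 0.976 with others of their own day and 0.971 with those of another.

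The corpus luteum forms from the ovulated follicle and secretes the progesterone on which pregnancy depends. In cattle the elongating conceptus secretes interferon tau, which holds back the pulses of prostaglandin F2 alpha from the uterus that would otherwise end luteal life. Interferons of this type bind the receptor IFNAR1/IFNAR2 and, through kinases such as JAK1 and TYK2 and factors such as STAT2 and IRF9, switch on a set of antiviral genes called interferon-stimulated genes. The tissue carried the transcripts of a steroid-secreting gland on both days. HSD3B1, which converts pregnenolone to progesterone, had 5305, 4225, 5283 and 5808 RPKM on day 20, against 4246, 5368, 4789.6 and 4899 RPKM on day 14. The groups overlapped for it, and also for CYP11A1, the enzyme that turns cholesterol into pregnenolone, at 4162 ± 254 RPKM on day 20 and 4424 ± 476 RPKM on day 14 (SD, n = 4 each here and below).

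On day 20, 19 genes were higher than on day 14 and 1 was lower at an adjusted p under 0.05, which were 0.147% and 0.00772% of the genes tested. Of the 19, 15 stand on a list of 56 classic interferon-stimulated genes and 3 on a list of 81 further genes that interferons induce. LOC618737 and the 1 gene that fell, SLC25A15, stand on neither. Adjusted p-values are from limma on log2(RPKM + 1) with Benjamini-Hochberg adjustment over all genes tested, and each fold change below is on that log2 scale, day 20 minus day 14, with its standard error. Before adjustment, 552 genes were higher and 566 lower at p under 0.05. Beside the test, the groups of each gene were compared for overlap. For 297 genes every library of day 20 exceeded every library of day 14 (2.29%), and for 380 genes every one lay lower (2.94%). The genes above had a median absolute log2 fold change of 0.52 and those below one of 0.24, so that the genes above differed by more. Non-overlap is used as a description, and members of a list named for it were chosen after their values were seen. Leaving out a library can only add such genes: without each library in turn, 2.82% to 4.7% of all genes lay above and 4.09% to 5.52% below. Of the log2 fold changes of all 12945 genes, 5793 were positive and 7152 negative. Counts of list members below are to be read beside these values.

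The number of calls rests on the libraries in the fit. Without replicates 1 to 4 of day 20 in turn, 6, 10, 22 and 0 genes passed, and without replicates 1 to 4 of day 14, 6, 19, 15 and 9. Without day 20 replicate 4 the smallest adjusted p in limma was 0.0569, with 450 genes higher and 486 lower at an unadjusted p under 0.05. A fit that took its estimate of spread from all 16 libraries passed 0 genes, with 544 higher and 502 lower unadjusted. The same fit without day 17 replicate 3, an animal whose ISG15 level of 359.5 RPKM exceeded that of every day 20 library, passed 36. The p-values of the main fit set the difference between the days against the spread within each day of these 8 libraries.

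The ISG15 system, which attaches a ubiquitin-like protein to other proteins, held some of the clearest rises. ISG15 itself had 173, 221, 143 and 247 RPKM on day 20, against 9.64, 27.5, 23.6 and 24 RPKM on day 14. The lowest animal of day 20 was over 5 times the highest of day 14, and the ratio of the means was 9.24 (log2 fold change 3.21 ± 0.31, adjusted p = 0.0132). USP18, the protease that takes ISG15 off its targets and restrains signalling at the receptor, had 15.3, 14.4, 15.1 and 17.5 RPKM on day 20, against 3.32, 4.93, 5.97 and 5.95 RPKM on day 14 (log2 fold change 1.48 ± 0.15, adjusted p = 0.0132). HERC6, the main ISG15 ligase in the mouse, had 21.7, 28.5, 17.3 and 24.1 RPKM on day 20, against 5.64, 9.13, 8.98 and 6.72 RPKM on day 14 (log2 fold change 1.47 ± 0.18, adjusted p = 0.0307). The groups did not overlap for any of the 3. UBA7, the enzyme that activates ISG15, had 42.8, 66.4, 39.9 and 44.4 RPKM on day 20, against 12.3, 25.6, 15.6 and 13.7 RPKM on day 14. UBE2L6, which carries it to the ligase, had 15.01, 17.7, 12.2 and 16.7 RPKM on day 20, against 6.88, 9.48, 8.54 and 8.78 RPKM on day 14. Neither of these passed (adjusted p = 0.0677 and 0.0733), although their groups did not overlap either.

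Of the 3 RNA helicases of the RIG-I family on the list, DHX58 and DDX58 rose. DHX58 (LGP2), a regulator of the other sensors, had the smallest p of all genes, with 17.7, 21.9, 17.4 and 22.2 RPKM on day 20, against 6.48, 7.099, 8.65 and 7.03 RPKM on day 14 (log2 fold change 1.32 ± 0.11, adjusted p = 0.0132). DDX58 (RIG-I itself) had 22.4, 25.03, 19.3 and 22.8 RPKM on day 20, against 6.87, 8.88, 10.2 and 10.5 RPKM on day 14 (log2 fold change 1.22 ± 0.13, adjusted p = 0.0132). IFIH1 (MDA5), the other of them, had 9.64, 16.8, 10.2 and 14.1 RPKM on day 20, against 3.53, 5.01, 6.23 and 5.67 RPKM on day 14, with groups apart, and did not pass (log2 fold change 1.15 ± 0.20, adjusted p = 0.0947). ZBP1, which binds left-handed nucleic acids, had 12.4, 21.96, 10.5 and 15.5 RPKM on day 20, against 2.17, 4.59, 3.92 and 2.13 RPKM on day 14 (log2 fold change 1.94 ± 0.26, adjusted p = 0.0307). EIF2AK2 (PKR), the kinase that halts translation on binding double-stranded RNA, moved least among the classic genes that passed, with 12.9, 17.3, 13.9 and 14.6 RPKM on day 20, against 6.896, 8.88, 7.27 and 8.97 RPKM on day 14 (log2 fold change 0.80 ± 0.12, adjusted p = 0.047). ZNFX1, a helicase-like protein that also senses RNA and stands on the wider list, had 34.6, 44.1, 29.3 and 33.7 RPKM on day 20, against 13.7, 18.4, 16.1 and 18.5 RPKM on day 14 (log2 fold change 1.04 ± 0.14, adjusted p = 0.0307).

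Effector genes, whose products act on viral RNA or particles, were next. IFIT1, which binds foreign RNA by its cap, had 16.1, 31.3, 14.3 and 15.3 RPKM on day 20, against 2.83, 3.08, 3.93 and 2.75 RPKM on day 14. Replicate 2 of day 20 stood far above the other animals of its day, and the groups did not overlap (log2 fold change 2.23 ± 0.23, adjusted p = 0.0132). OAS1Y, a copy of the 2′-5′ oligoadenylate synthetase, had 119, 206, 144 and 227 RPKM on day 20, against 20.3, 29.3, 36.8 and 40.5 RPKM on day 14 (log2 fold change 2.42 ± 0.26, adjusted p = 0.0132), with reads that the near-identical OAS1X and OAS1Z can share, so that its separate value is uncertain. MX1, an antiviral GTPase, had 166, 171, 130.3 and 233 RPKM on day 20, against 38.2, 25.8, 58.3 and 56.4 RPKM on day 14 (log2 fold change 1.99 ± 0.27, adjusted p = 0.0307). For both synthetase and GTPase, day 20 replicate 4 was highest and the lowest library of day 20 exceeded the highest of day 14 more than 2-fold. MX2, the paralog of MX1, had 5.26, 16.2, 5.06 and 5.13 RPKM on day 20, against 0.909, 0.699, 0.493 and 0.881 RPKM on day 14, and with day 20 replicate 2 at 3 times the other animals of its day it missed the threshold (log2 fold change 2.19 ± 0.32, adjusted p = 0.0509), but passed without that library (adjusted p = 0.00346). MX2 and OAS2 are the 2 tested members of the classic list with no day 14 library at an RPKM of 1, and they passed the filter through day 20 alone.

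Among the remaining classic genes that passed, RSAD2 (viperin) had 11.4, 19.99, 10.3 and 14.6 RPKM on day 20, against 2.45, 1.84, 4.73 and 2.73 RPKM on day 14 (log2 fold change 1.95 ± 0.25, adjusted p = 0.0307). RTP4, a chaperone of membrane receptors that also restricts viruses, had 11.5, 23.4, 12.5 and 16.6 RPKM on day 20, against 3.17, 5.27, 4.72 and 4.23 RPKM on day 14 (log2 fold change 1.63 ± 0.22, adjusted p = 0.0307). IFI44 had 32.7, 39.8, 26.2 and 55.7 RPKM on day 20, against 5.36, 7.03, 10.5 and 10.7 RPKM on day 14 (log2 fold change 2.07 ± 0.26, adjusted p = 0.0307). No animal of day 14 reached the lowest animal of day 20 in any of the 3. PARP10, a mono-ADP-ribosyltransferase on the wider list, had 28.3, 31.9, 24.7 and 29.9 RPKM on day 20, against 12.9, 15.7, 14.8 and 15.3 RPKM on day 14, with little spread within a day (log2 fold change 0.92 ± 0.10, adjusted p = 0.0132).

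Of the transcription factors of the pathway, IRF7, which amplifies interferon production, had 19.7, 32.4, 23.3 and 26.7 RPKM on day 20, against 9.44, 12.7, 10.5 and 9.004 RPKM on day 14 (log2 fold change 1.21 ± 0.16, adjusted p = 0.0307). IRF9, the DNA-binding part of the complex below the receptor, had 40.2, 49.2, 37.3 and 41.5 RPKM on day 20, against 16.1, 26.4, 20.4 and 18.7 RPKM on day 14 (log2 fold change 1.02 ± 0.15, adjusted p = 0.0442). STAT2, its partner, had 52.3, 40.3, 44.1 and 40.3 RPKM on day 20, against 33.1, 37.5, 29.6 and 31.9 RPKM on day 14, with groups that did not overlap, but did not pass (log2 fold change 0.41 ± 0.10, adjusted p = 0.259). The receptor and its kinases overlapped between the days. IFNAR1 had 19.4, 18.6, 14.5 and 15.04 RPKM on day 20, against 15.1, 17.7, 18.3 and 23.6 RPKM on day 14. IFNAR2 had 20.9, 19.98, 14.96 and 19.3 RPKM on day 20, against 17.3, 15.9, 20.9 and 18.8 RPKM on day 14. Their log2 fold changes were -0.13 and 0.04 (adjusted p = 0.874 and 0.965), the second of which turns negative without day 14 replicate 2 or day 20 replicate 1. JAK1 was at 49.5 ± 4.36 RPKM on day 20 and 49.02 ± 5.89 RPKM on day 14. TYK2 was at 37.4 ± 3.27 RPKM on day 20 and 39.1 ± 4.67 RPKM on day 14. Across the 25 tested genes of receptors and signalling the median log2 fold change was 0.04 and the highest 0.296. IRF7, IRF9 and STAT2 are not among these 25. Of the 25, 2 lay above in all libraries (8%, against 2.29% of all genes).

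**Figure D1:**
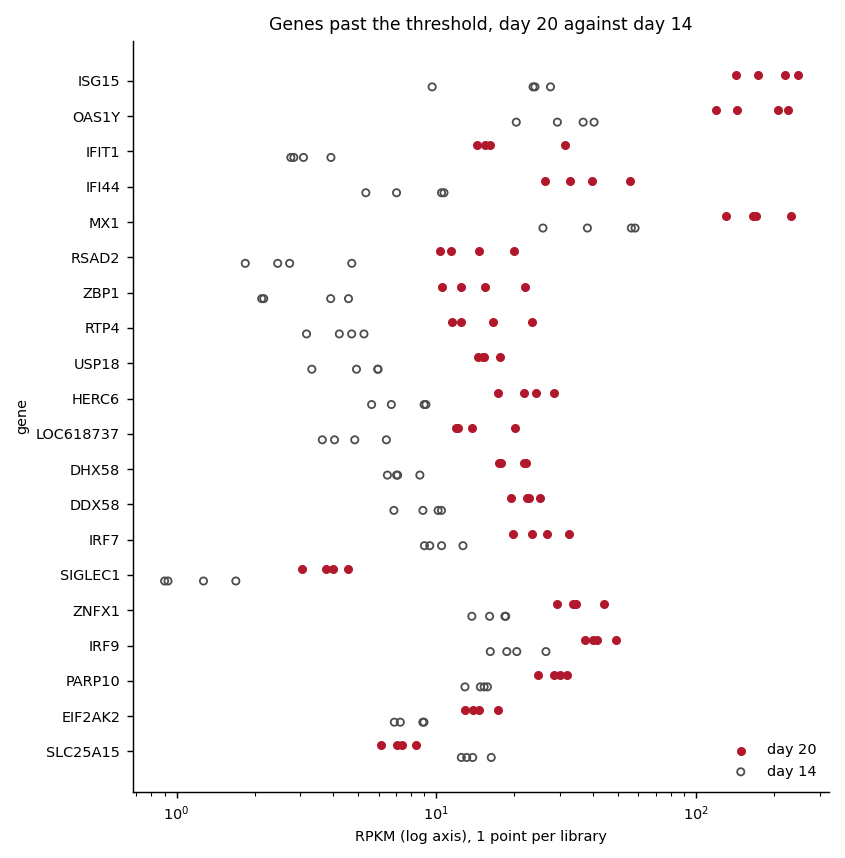
RPKM on a log axis for the 20 genes past the threshold, with 1 point per library, day 20 in red above day 14 in grey, ordered by fold change. For the 19 genes that rose no red point falls among the grey ones, and for SLC25A15 at the bottom the 4 red points (6.14 to 8.32) lie to the left of the 4 grey ones (12.5 to 16.3).

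Over the classic list as a whole, 49 of 56 genes were found in the table and 46 tested, and all 46 had a positive log2 fold change, with a median of 1.115 against -0.02 over all genes. 39 of the 46 did not overlap (84.8%, against 2.29% of all genes). The RPKM of the list summed to 2749 to 4013 per library on day 20 and 999.7 to 1583 on day 14. Some abundant members spread widely within a day. IFI6, a small mitochondrial protein, had 359.9, 913, 568 and 902 RPKM on day 20, against 58.04, 206, 269 and 111 RPKM on day 14. IFI27 had 524, 533, 482 and 867 RPKM on day 20, against 67.3, 258, 167 and 263 RPKM on day 14. Both groups stayed apart, and neither gene passed (adjusted p = 0.177 and 0.205). The groups overlapped for 7 members, among them LGALS3BP and CXCL10. LGALS3BP, a secreted glycoprotein of high level on both days, had 554, 626, 551 and 469.7 RPKM on day 20, against 415, 473, 473 and 524 RPKM on day 14. CXCL10, a chemokine for activated T cells, had 9.54, 26.6, 5.58 and 10.2 RPKM on day 20, against 7.43, 5.33, 8.53 and 5.59 RPKM on day 14. Both had their lowest day 20 animal within the range of day 14. Of the wider list 66 of 81 genes were tested, of which 60 had positive values, with a median of 0.33. Of the 66, 17 did not overlap (25.8%, against 2.29% of all genes) and 3 passed. Leaving out day 20 replicate 3 raised the count apart to 28 (42.4%, against 4.22% of all genes). Leaving out day 14 replicate 2 raised it to 27 (40.9%, against 3.42% of all genes). Beside the 3 that passed, the 17 were PML, CASP4, TDRD7, TRIM34, IFI16, TREX1, TRANK1, TRIM21, PNPT1, SLFN11, BATF2, RBCK1, TNFSF10 and RNF114. TNFSF10 (TRAIL), a ligand that triggers cell death, had 27.96, 57.1, 29.5 and 32.6 RPKM on day 20, against 12.8, 20.3, 21.9 and 24.02 RPKM on day 14, with day 20 replicate 2 far above the others (log2 fold change 0.84 ± 0.25, adjusted p = 0.335).

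LOC618737 is a gene without an informative name, and 2 rows of the table carry its symbol. The row that passed had 11.95, 20.1, 13.7 and 12.1 RPKM on day 20, against 4.06, 4.85, 6.43 and 3.64 RPKM on day 14 (log2 fold change 1.42 ± 0.19, adjusted p = 0.0307), and the other had 34.6, 49.4, 15.3 and 31.98 RPKM on day 20, against 6.22, 12.997, 6.36 and 8.28 RPKM on day 14 (adjusted p = 0.131). Both rows were higher in every animal of day 20. SLC25A15, the carrier that takes ornithine into mitochondria for the urea cycle, had 7.41, 7.05, 8.32 and 6.14 RPKM on day 20, against 16.3, 13.8, 13.1 and 12.5 RPKM on day 14 (log2 fold change -0.86 ± 0.11, adjusted p = 0.0307). The highest animal of day 20 was well below the lowest animal of day 14. Neither call held without day 20 replicate 4 (adjusted p = 0.106 for LOC618737 and 0.105 for SLC25A15), and across the settings tried each passed in 12 of 22. Of the fits with 1 library left out, this row of LOC618737 passed only in that without day 14 replicate 3. SLC25A15 passed only in that without day 20 replicate 3. The other settings in which they passed kept all 8 libraries.

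Outside both interferon lists 12833 genes were tested, with 241 above and 380 below in all libraries. Absence from the lists does not show that interferon leaves a gene unchanged, and this was not tested for any of them. Apart from LOC618737 none of those above passed, and the smallest p belonged to BOLA-NC1, a class I gene of the major histocompatibility complex. It had 189.6, 119.6, 151 and 205 RPKM on day 20, against 62.7, 77.3, 66.8 and 87.8 RPKM on day 14, with groups well apart (log2 fold change 1.15 ± 0.18, adjusted p = 0.0677). Its paralog BOLA had 477, 636, 762 and 1412 RPKM on day 20, against 264, 444, 22.9 and 290.3 RPKM on day 14, in which day 14 replicate 3 was far below the rest and day 20 replicate 4 far above (log2 fold change 2.16 ± 0.83, adjusted p = 0.492). JSP.1, another copy, had 206, 1011, 1298 and 2412 RPKM on day 20, against 278, 1364, 408 and 628 RPKM on day 14, with overlapping groups (log2 fold change 0.69 ± 0.74, adjusted p = 0.873). Reads can be split among these near-identical copies, whose alleles also differ between animals, so that their separate levels are uncertain. B2M, the shared light chain, had 413, 422, 363 and 613 RPKM on day 20, against 239, 464, 372 and 282 RPKM on day 14 (log2 fold change 0.43 ± 0.23, adjusted p = 0.648). TAP1, which pumps peptides to them, was at 85.8 ± 17.8 RPKM on day 20 and 65.7 ± 26.8 RPKM on day 14. PSMB8, a subunit of the immunoproteasome, was at 149 ± 24.8 RPKM on day 20 and 112 ± 32.2 RPKM on day 14. Both overlapped between the days. Of the 32 tested genes of antigen presentation, 29 had positive values with a median of 0.35. Of the 32, 2 did not overlap (6.25%, against 2.29% of all genes) and 0 passed in limma. On neither interferon list stand 22 of the 32, with a median of 0.305 and the same 2 apart. Without day 14 replicate 2 the count apart was 9 of 32 (28.1%, against 3.42% of all genes). Leaving out day 20 replicate 3 gave 5 (15.6%, against 4.22%), and replicate 1 of that day 4 (12.5%, against 3.26%).

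**Figure D2:**
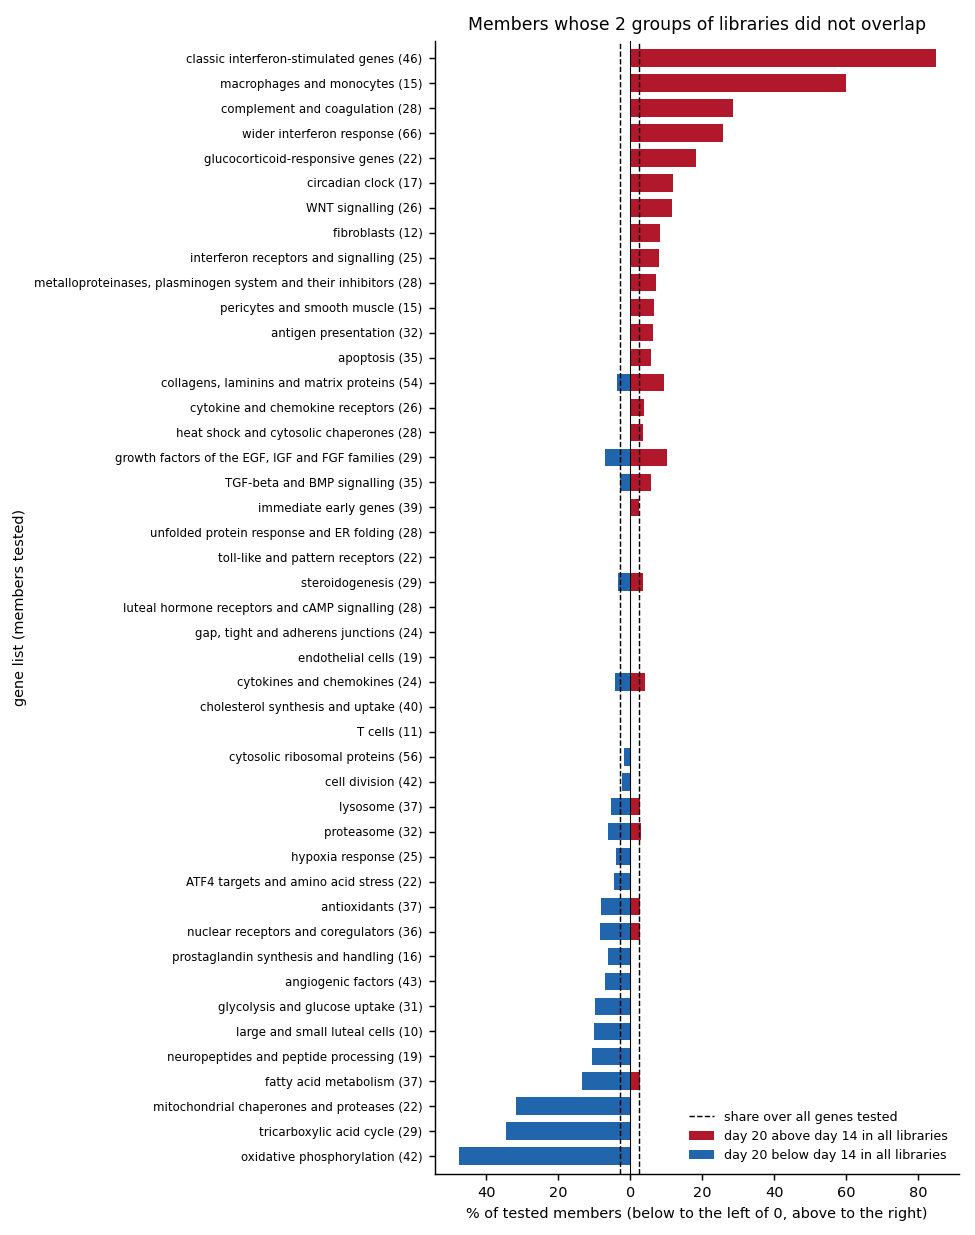
Share of the tested members of each list with at least 10 tested members whose day 20 libraries all lay above (red, to the right) or all below (blue, to the left) the day 14 libraries, with the share over all genes tested as dashed lines. Classic interferon-stimulated genes (84.8%) and macrophage markers (9 of 15) extend furthest to the right, and oxidative phosphorylation (47.6%), the tricarboxylic acid cycle (34.5%) and mitochondrial chaperones and proteases (31.8%) furthest to the left.

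Markers of macrophages had higher values on day 20 than on day 14. All 15 tested members of 17 had positive log2 fold changes with a median of 0.53, 9 did not overlap (60% of those tested, against 2.29% of all genes), and 1 passed. Their RPKM summed to 397 to 560 per library on day 20 and 200 to 304 on day 14, and none of those found was at 0 in all libraries. The member that passed was SIGLEC1, a sialic acid receptor of macrophages that interferon also induces and that stands on the wider list. It had 3.05, 3.75, 3.99 and 4.58 RPKM on day 20, against 0.927, 1.27, 1.69 and 0.899 RPKM on day 14 (log2 fold change 1.15 ± 0.15, adjusted p = 0.0307), and 2 of the 4 day 14 libraries were under the RPKM of 1 of the filter. Without it, 8 of 14 markers did not overlap. In RNA of whole tissue, more cells of a type and more RNA per cell cannot be told apart.

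The 3 chains of C1q, the recognition molecule of the classical complement pathway that macrophages make, had like differences. C1QB had 115, 141, 111 and 91.9 RPKM on day 20, against 46.9, 68.5, 62.5 and 57.7 RPKM on day 14 (log2 fold change 0.94 ± 0.15, adjusted p = 0.0691). C1QC had 139, 171, 133 and 113 RPKM on day 20, against 53.4, 87.95, 83.4 and 74.8 RPKM on day 14 (log2 fold change 0.89 ± 0.17, adjusted p = 0.139). C1QA had 61.7, 79.8, 62.1 and 54.5 RPKM on day 20, against 27.3, 45.4, 37.5 and 35.6 RPKM on day 14 (log2 fold change 0.82 ± 0.16, adjusted p = 0.144). For all 3 chains, day 20 replicate 2 was highest, day 14 replicate 1 lowest, and the groups stayed apart. CD163, the scavenger receptor for haemoglobin, had 24.5, 36.5, 17.6 and 18.3 RPKM on day 20, against 9.28, 12.1, 14.1 and 11.04 RPKM on day 14 (log2 fold change 0.95 ± 0.22, adjusted p = 0.213). MRC1, the mannose receptor, had 6.38, 5.15, 4.24 and 4.87 RPKM on day 20, against 3.08, 3.403, 3.44 and 3.06 RPKM on day 14 (log2 fold change 0.53 ± 0.12, adjusted p = 0.177). CSF1R, the receptor for the growth factor of macrophages, had 16.3, 17.4, 15.4 and 19.5 RPKM on day 20, against 9.09, 13.7, 15.2 and 11.5 RPKM on day 14, where the lowest of day 20 exceeded the highest of day 14 by little. VSIG4, FCGR1A and C1QA to C1QC complete the 9. CD14 had 16.4, 21.8, 9.79 and 16.2 RPKM on day 20, against 7.59, 8.06, 12.02 and 8.396 RPKM on day 14. CD68 was at 21.7 ± 2.99 RPKM on day 20 and 20.5 ± 3.95 RPKM on day 14, and both overlapped.

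Of the 28 tested genes of complement and coagulation, 25 had positive values with a median of 0.30. Of the 28, 8 did not overlap (28.6%, against 2.29% of all genes), 3 of which are the C1q chains. CLU (clusterin), a secreted chaperone that restrains complement, had 388, 477, 339 and 619.7 RPKM on day 20, against 138, 333, 177 and 138 RPKM on day 14 (log2 fold change 1.27 ± 0.30, adjusted p = 0.213), and passed without day 14 replicate 2, the highest of its day (adjusted p = 0.0475). SERPING1, the C1 inhibitor, had 153, 116, 109 and 166 RPKM on day 20, against 79.9, 101, 46.02 and 58.7 RPKM on day 14 (log2 fold change 0.96 ± 0.24, adjusted p = 0.248). C7, a part of the membrane attack complex, had 99.6, 57.3, 34.6 and 57.4 RPKM on day 20, against 26.9, 21.6, 28.2 and 31.9 RPKM on day 14 (log2 fold change 1.08 ± 0.27, adjusted p = 0.248). The highest animal of day 14 came close to the lowest of day 20 for C7. CFD (factor D), the protease of the alternative pathway, had 44.8, 42.4, 43.3 and 46.5 RPKM on day 20, against 30.1, 28.5, 32.6 and 37.8 RPKM on day 14 (log2 fold change 0.45 ± 0.09, adjusted p = 0.149). C7 varied almost 3-fold between the animals of day 20, whereas factor D varied little. C3, at the centre of the cascade, overlapped at 3.46 ± 1.204 RPKM on day 20 and 2.73 ± 0.484 RPKM on day 14. In limma 0 of the 28 passed, and voom on the recovered reads also passed 0. It passed 0 in each of the 54 lists of 57 in which limma passed 0.

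All 11 tested T cell markers of 18 had positive values with a median of 0.46, and 0 did not overlap. Without day 14 replicate 1, 4 of the 11 lay above (36.4%, against 3.28% of all genes). CD3E, a chain of the T cell receptor complex, had 8.27, 4.02, 2.39 and 6.78 RPKM on day 20, against 4.53, 2.08, 1.53 and 1.66 RPKM on day 14. LCK, its kinase, had 6.71, 3.56, 3.06 and 6.71 RPKM on day 20, against 3.999, 2.75, 4.67 and 3.701 RPKM on day 14. Day 20 replicates 1 and 4 were the high animals in both, and replicates 2 and 3 lay within the range of day 14. The summed level of the list was 22.4 to 62.3 RPKM on day 20 and 18.3 to 33.6 on day 14. Among 6 tested markers of natural killer and cytotoxic cells, 0 lay above, or 3 without day 20 replicate 3 (50%, against 4.22% of all genes). PRF1 (perforin) had 6.36, 2.92, 1.66 and 3.97 RPKM on day 20, against 3.14, 0.991, 1.76 and 0.704 RPKM on day 14. GNLY (granulysin) had 3.97, 3.09, 1.498 and 5.29 RPKM on day 20, against 4.11, 0.547, 1.22 and 0.456 RPKM on day 14, again with overlap. XCL1 (lymphotactin), a chemokine for cross-presenting dendritic cells, went the other way, with 10.5, 9.15, 6.25 and 2.71 RPKM on day 20, against 23.7, 24.5, 55.2 and 18.4 RPKM on day 14. It was the tested gene with a symbol that had the lowest fold change among those whose groups did not overlap (log2 fold change -1.94 ± 0.41, adjusted p = 0.168), and day 14 replicate 3 stood above the other 3 of its day. RGS1, a regulator of chemokine signalling in lymphocytes that is on the immediate early list, had 5.802, 9.401, 7.62 and 13.7 RPKM on day 20, against 4.06, 3.199, 4.11 and 3.86 RPKM on day 14 (log2 fold change 1.02 ± 0.21, adjusted p = 0.163).

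**Figure D3:**
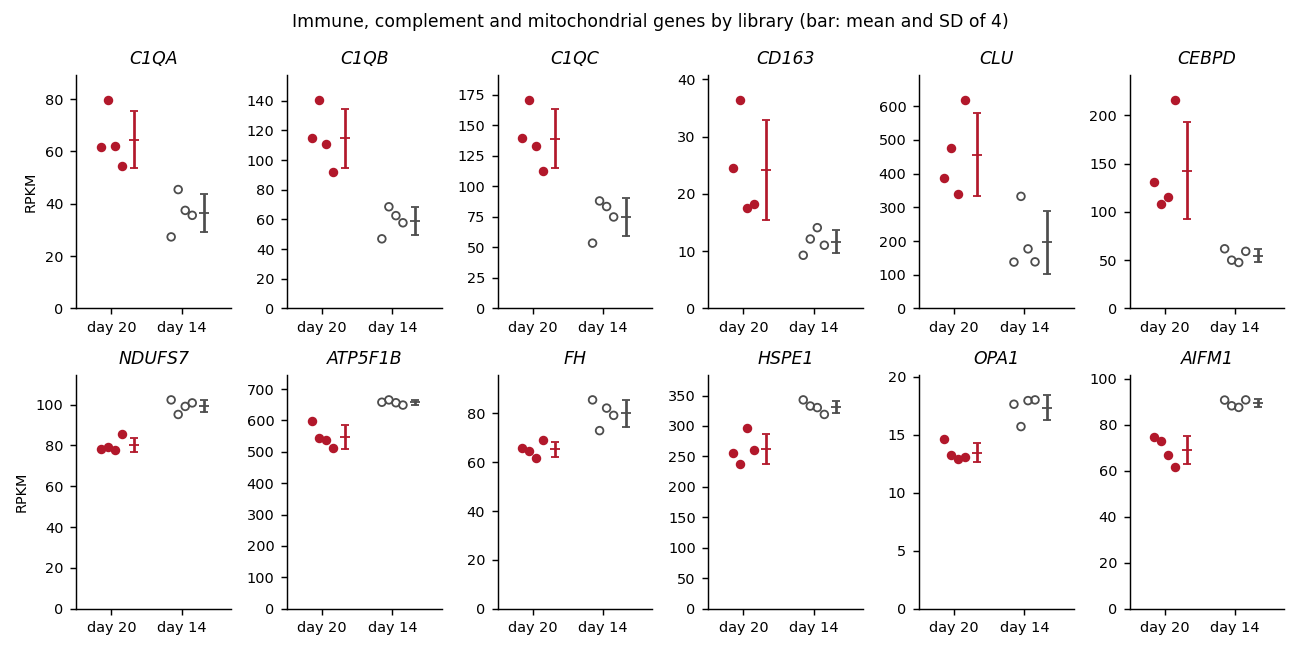
RPKM in each library for 6 genes of immune cells, complement and stress (top) and 6 mitochondrial genes (bottom), with day 20 in red left of day 14 in grey, and the mean and SD of 4 libraries beside the points. In the top row every red point lies above the grey ones, and in the bottom row every red point lies below them, by a smaller margin. The genes shown were chosen among those whose groups did not overlap, so this separation follows from the choice. Members that overlapped, such as CD14, CD68 and COX6A1, are not shown.

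CEBPD, a transcription factor of the acute phase and of glucocorticoid action, was among the genes closest to the threshold, with 131, 108, 116 and 216 RPKM on day 20, against 61.8, 50.002, 47.6 and 59.2 RPKM on day 14 (log2 fold change 1.32 ± 0.21, adjusted p = 0.0677). The mean of day 20 was 2.61 times that of day 14, with replicate 4 of day 20 highest. Of 22 tested genes that glucocorticoids induce in many cells, 4 lay above in all libraries (18.2%, against 2.29% of all genes). The list was mixed, with 14 positive and 8 negative log2 fold changes, the lowest that of ANGPTL4 at -1.219. In limma 7 were higher and 2 lower at an unadjusted p under 0.05, and 0 passed. Without day 20 replicate 2 there were 7 (31.8%, against 4.07% of all genes). The 4 were CEBPD, PER1, KLF9 and ZBTB16. PER1, a clock gene, had 40.6, 40.3, 37.9 and 60.3 RPKM on day 20, against 30.4, 23.2, 17.004 and 27.8 RPKM on day 14 (log2 fold change 0.85 ± 0.20, adjusted p = 0.218). KLF9, which cooperates with the progesterone and glucocorticoid receptors, had 27.96, 14.7, 14.2 and 18.03 RPKM on day 20, against 9.73, 9.37, 12.5 and 11.5 RPKM on day 14 (log2 fold change 0.70 ± 0.20, adjusted p = 0.31). ZBTB16 had 5.52, 1.28, 3.73 and 2.1 RPKM on day 20, against 0.582, 1.19, 0.149 and 0.482 RPKM on day 14, of which 3 day 14 libraries lay under the RPKM of 1 of the filter (log2 fold change 1.30 ± 0.33, adjusted p = 0.248). Best known targets of the same receptor overlapped, with FKBP5 at 32.1 ± 4.86 RPKM on day 20 and 26.5 ± 4.61 RPKM on day 14. TSC22D3 (GILZ) was at 141 ± 12.5 RPKM on day 20 and 129.5 ± 29.8 RPKM on day 14, and its difference turns negative without day 14 replicate 3. The median of the list was 0.15, and became -0.02 without day 14 replicate 3. HP (haptoglobin), an acute-phase protein, had 7.61, 11.02, 7.62 and 8.08 RPKM on day 20, against 1.65, 2.23, 1.83 and 5.88 RPKM on day 14 (log2 fold change 1.40 ± 0.29, adjusted p = 0.158), and passed without day 14 replicate 4 (adjusted p = 0.0308).

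Outside the interferon lists there were 32 genes above in all libraries with a log2 fold change of at least 1 and 10 below with one of at most -1, and none but LOC618737 passed. Those described here were chosen after their values were seen. ITGBL1, a secreted integrin-like protein, had 23.2, 8.35, 12.3 and 10.7 RPKM on day 20, against 2.13, 4.07, 0.826 and 1.47 RPKM on day 14 (log2 fold change 2.24 ± 0.36, adjusted p = 0.0724), and passed without day 14 replicate 2 (adjusted p = 0.0424). MFAP4, which binds elastic microfibrils, had 95.8, 24.8, 58.9 and 46.2 RPKM on day 20, against 17.2, 13.3, 13.4 and 4.88 RPKM on day 14 (log2 fold change 2.08 ± 0.44, adjusted p = 0.168). ELN (elastin) had 312, 101, 191 and 134 RPKM on day 20, against 83.4, 71.2, 79.4 and 64.8 RPKM on day 14 (log2 fold change 1.17 ± 0.30, adjusted p = 0.261). LTBP2, a microfibril protein, had 23.97, 3.895, 12.5 and 14.5 RPKM on day 20, against 3.32, 2.93, 3.76 and 1.298 RPKM on day 14, where day 20 replicate 2 was barely above day 14 (log2 fold change 1.78 ± 0.45, adjusted p = 0.259). Day 20 replicate 1 was highest and replicate 2 lowest in all 4 of these genes. PRELP, a small leucine-rich proteoglycan, was at 15.4 ± 2.95 RPKM on day 20 and 7.32 ± 2.49 RPKM on day 14. PODN, of the same family, was at 3.61 ± 0.985 RPKM on day 20 and 1.295 ± 0.629 RPKM on day 14. APOD, a lipid carrier of fibroblasts and nerve sheaths, had 197, 140.1, 156 and 244 RPKM on day 20, against 75.02, 69.9, 61.04 and 140.1 RPKM on day 14 (log2 fold change 1.13 ± 0.27, adjusted p = 0.222), where the lowest of day 20 and the highest of day 14 were almost equal. SCUBE2, a secreted protein that releases hedgehog ligands, had 13.2, 9.88, 9.11 and 9.25 RPKM on day 20, against 5.23, 2.22, 3.24 and 4.25 RPKM on day 14 (log2 fold change 1.29 ± 0.20, adjusted p = 0.0697).

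Of 54 tested matrix genes, 36 had positive values with a median of 0.10, 5 lay above (9.26%) and 2 below (3.70%) in all libraries. Over all genes those shares were 2.29% and 2.94%. 16 of the 54 lay above when day 14 replicate 3 was left out (29.6%, against 4.7% of all genes). Fibrillar collagens overlapped, with COL1A1 at 1589 ± 488 RPKM on day 20 and 1157 ± 296 RPKM on day 14. COL3A1 was at 1407 ± 525 RPKM on day 20 and 1306 ± 252 RPKM on day 14, and its log2 fold change of 0.05 turns negative without day 14 replicate 4 or day 20 replicate 1 or 2. The 2 below were of the basement membrane. COL4A1, its network collagen, had 671, 633, 585 and 558 RPKM on day 20, against 707, 747, 941 and 742 RPKM on day 14 (log2 fold change -0.35 ± 0.11, adjusted p = 0.377). LAMB1, a laminin chain, had 154, 141, 151 and 153 RPKM on day 20, against 182, 173, 169 and 179 RPKM on day 14, with little spread within a day (log2 fold change -0.23 ± 0.06, adjusted p = 0.3). MYH11, the myosin of smooth muscle, had 56.3, 26.1, 45.8 and 33.1 RPKM on day 20, against 26.8, 16.9, 23.1 and 14.7 RPKM on day 14, with 1 animal of day 14 above 1 of day 20 (log2 fold change 0.93 ± 0.26, adjusted p = 0.3). Markers of pericytes and smooth muscle summed to 559.5 to 1002 RPKM on day 20 and 441 to 737 on day 14, and those of fibroblasts to 4041 to 7056 on day 20 and 3691 to 6226 on day 14. Of 15 tested markers of pericytes and smooth muscle 1 lay above (6.67%, against 2.29% of all genes). Without day 20 replicate 2 there were 8 (53.3%, against 4.07% of all genes). The high animals for MYH11 on day 20, replicates 1 and 3, were also the high ones for ELN and MFAP4, and the part of the smooth muscle markers in these differences was not tested.

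Of 35 tested genes of TGF-beta and BMP signalling, 2 lay above in all libraries (5.71%) and 1 below (2.86%), with a median of 0.04. Over all genes those shares were 2.29% and 2.94%. LTBP2, whose values are given earlier, was 1 of the 2. CHRDL1 and NBL1, described next, both lay above in all libraries, so at least 1 of them is not on this list. Leaving out day 14 replicate 3 gave 4 above (11.4%, against 4.7% of all genes). CHRDL1, a secreted antagonist of bone morphogenetic proteins, had 3.78, 3.25, 3.51 and 3.11 RPKM on day 20, against 1.53, 1.81, 2.295 and 1.601 RPKM on day 14 (log2 fold change 0.66 ± 0.11, adjusted p = 0.0959). NBL1, another secreted antagonist and one of the genes outside the lists with the smallest p, had 18.1, 19.8, 14.4 and 18.2 RPKM on day 20, against 12.4, 11.98, 10.5 and 10.96 RPKM on day 14 (log2 fold change 0.57 ± 0.10, adjusted p = 0.104). Among genes of WNT signalling, 3 of 26 tested lay above (11.5%, against 2.29% of all genes). The ligand WNT5A had 12.8, 9.597, 10.5 and 9.896 RPKM on day 20, against 7.29, 7.46, 8.45 and 7.395 RPKM on day 14 (log2 fold change 0.43 ± 0.10, adjusted p = 0.213). DKK3, a secreted modulator of the pathway, had 32.5, 23.6, 23.8 and 30.02 RPKM on day 20, against 16.05, 15.1, 21.99 and 10.4 RPKM on day 14 (log2 fold change 0.78 ± 0.20, adjusted p = 0.259). Neither passed, and day 14 replicate 3 was the highest of its day in both. Among growth factors, FGF2 had 1.805, 1.72, 2.196 and 2.097 RPKM on day 20, against 0.968, 1.03, 1.34 and 1.28 RPKM on day 14. FGFR1, its receptor, had 27.1, 23.2, 17.6 and 20.2 RPKM on day 20, against 14.6, 16.9, 16.3 and 14.3 RPKM on day 14. Neither passed (adjusted p = 0.244 and 0.292). DHRS3, which reduces retinaldehyde, had 33.1, 35.4, 32.3 and 34.1 RPKM on day 20, against 19.6, 16.2, 25.4 and 22.4 RPKM on day 14 (log2 fold change 0.68 ± 0.12, adjusted p = 0.105). HCRTR1, an orexin receptor, had 13.6, 11.1, 9.43 and 13.6 RPKM on day 20, against 6.69, 6.27, 5.52 and 7.601 RPKM on day 14 (log2 fold change 0.78 ± 0.13, adjusted p = 0.0947). SLC15A3, a peptide and histidine transporter of lysosomes, had 7.099, 8.96, 6.01 and 7.14 RPKM on day 20, against 3.68, 4.22, 4.33 and 3.497 RPKM on day 14 (log2 fold change 0.74 ± 0.12, adjusted p = 0.0733). The groups stayed apart for these 3, and none passed. LOC509283, a gene without an informative name, had 27.6, 28.5, 19.01 and 25.8 RPKM on day 20, against 14.6, 14.2, 11.5 and 13.5 RPKM on day 14 (log2 fold change 0.85 ± 0.13, adjusted p = 0.0677). LRRC3, a leucine-rich repeat protein, had 3.57, 3.71, 6.52 and 4.42 RPKM on day 20, against 1.93, 2.12, 1.17 and 1.34 RPKM on day 14 (log2 fold change 1.06 ± 0.19, adjusted p = 0.0966). MAD2L2 (REV7), which acts in the repair of DNA breaks, had 7.96, 9.595, 6.87 and 7.61 RPKM on day 20, against 5.203, 5.46, 4.62 and 4.86 RPKM on day 14 (log2 fold change 0.57 ± 0.11, adjusted p = 0.117). No animal of day 14 reached the level of day 20 in any of them.

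Oxidative phosphorylation is the chain of complexes I to IV with ATP synthase, which makes ATP in the inner mitochondrial membrane. Of 42 tested nuclear genes 39 had negative log2 fold changes, with a median of -0.17. 20 of them lay below in all libraries (47.6%, against 2.94% of all genes), and 0 passed in limma, with 20 at an unadjusted p under 0.05. By complex, 7 of 18 tested members of complex I did not overlap, 2 of 4 of complex II, 4 of 6 of complex III, 2 of 5 of complex IV and 5 of 8 of ATP synthase. The list holds only part of some complexes. Taken whole by symbol, after the values were seen, 13 of 48 genes of complex I and its assembly lay below (27.1%). For complex IV it was 3 of 19 (15.8%), for complex III 5 of 9 (55.6%) and for ATP synthase 8 of 18 (44.4%). The count of 20 was 19 with median-ratio scaling and 15 with quantile normalization, alternatives chosen after the data were seen. Many of these genes have processed copies in the genome among which counting can split reads.

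NDUFS7, a core subunit of complex I, had 78.2, 79.3, 77.7 and 85.4 RPKM on day 20, against 102, 95.2, 99.1 and 101 RPKM on day 14 (log2 fold change -0.31 ± 0.06, adjusted p = 0.149). CYC1, cytochrome c1 of complex III, had 224, 209, 202 and 190.4 RPKM on day 20, against 253, 244, 266 and 249 RPKM on day 14 (log2 fold change -0.29 ± 0.07, adjusted p = 0.248). UQCRC1 of the same complex had 166, 149.8, 148 and 142 RPKM on day 20, against 193, 184, 183 and 170.2 RPKM on day 14. ATP5F1B, the catalytic beta subunit of ATP synthase, had 599, 543, 536 and 512 RPKM on day 20, against 658, 665, 656 and 649 RPKM on day 14 (log2 fold change -0.27 ± 0.08, adjusted p = 0.335). The 4 animals of day 14 lay close together for ATP5F1B, and all of day 20 lay lower. SDHB of complex II had 133, 149, 136.3 and 148 RPKM on day 20, against 175, 161, 163 and 158 RPKM on day 14. The groups stayed apart for these 5 subunits, by narrow margins in UQCRC1 and SDHB. COX6A1, the most abundant member of complex IV on the list, overlapped, with 645, 666, 645 and 724 RPKM on day 20, against 672, 680.4, 744 and 746 RPKM on day 14. NDUFAF2, an assembly factor of complex I, had 4.28, 5.95, 5.26 and 5.15 RPKM on day 20, against 8.15, 6.76, 7.59 and 8.18 RPKM on day 14 (log2 fold change -0.50 ± 0.11, adjusted p = 0.168).

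Of 29 tested genes of the tricarboxylic acid cycle and the reactions that feed it, 28 had negative values with a median of -0.17. Of the 29, 10 did not overlap (34.5%, against 2.94% of all genes below), or 7 with median-ratio scaling. CS (citrate synthase) had 73.05, 69.6, 75.95 and 60.3 RPKM on day 20, against 85.6, 96.6, 78.5 and 79.9 RPKM on day 14. In CS, day 20 replicate 4 was lowest and the margin to day 14 was narrow. FH (fumarase) had 66.03, 64.5, 61.6 and 69.1 RPKM on day 20, against 85.5, 72.9, 82.2 and 79.2 RPKM on day 14 (log2 fold change -0.29 ± 0.07, adjusted p = 0.245). GOT2, the aspartate aminotransferase of mitochondria, had 212, 209, 208 and 177 RPKM on day 20, against 243, 247, 259 and 263 RPKM on day 14 (log2 fold change -0.33 ± 0.08, adjusted p = 0.239). The days stayed apart by a small margin for these 3 enzymes, and the 1 gene of the list with a positive value was PCK2. Of 22 tested mitochondrial chaperones and proteases 21 had negative values and 7 did not overlap (31.8%, against 2.94% of all genes below). HSPE1, the lid of the mitochondrial chaperonin, had 255, 238, 297 and 261 RPKM on day 20, against 343, 333, 330.2 and 319 RPKM on day 14 (log2 fold change -0.34 ± 0.08, adjusted p = 0.244). HSPD1, its partner and a symbol that 2 rows share, had 94.3, 91.5, 123.1 and 79.3 RPKM on day 20, against 141, 131, 116 and 111 RPKM on day 14, with overlap from day 20 replicate 3. OPA1, which fuses inner membranes, had 14.6, 13.2, 12.9 and 13.1 RPKM on day 20, against 17.6, 15.7, 17.9 and 18.01 RPKM on day 14 (log2 fold change -0.34 ± 0.07, adjusted p = 0.177). LONP1, a protease of the matrix, had 97.1, 95.4, 91.4 and 90.1 RPKM on day 20, against 152, 107, 108 and 108 RPKM on day 14, where day 14 replicate 1 stood apart. AIFM1, an oxidoreductase needed for assembly of the respiratory chain, had 74.7, 72.9, 66.7 and 61.5 RPKM on day 20, against 90.7, 88.3, 87.6 and 90.8 RPKM on day 14 (log2 fold change -0.37 ± 0.07, adjusted p = 0.149).

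Some gene families were taken by symbol after the values were seen. Of 76 tested proteins of the mitochondrial ribosome (MRPL and MRPS) 69 had negative values, with a median of -0.08, and 6 lay below in all libraries (7.89%, against 2.94% of all genes). MRPS35 had 14.7, 14.04, 14.8 and 13.2 RPKM on day 20, against 19.4, 16.8, 21.9 and 19.8 RPKM on day 14 (log2 fold change -0.43 ± 0.09, adjusted p = 0.159). Of 39 tested SLC25 carriers of the inner membrane 27 had negative values, and SLC25A15 was the lowest of them. In all libraries 5 lay below (12.8%, against 2.94% of all genes) and 1 above (2.56%, against 2.29% of all genes). ALDH18A1, which makes the precursor of proline and ornithine from glutamate, had 40.4, 50.8, 53.2 and 41.6 RPKM on day 20, against 62.7, 61.7, 68.6 and 64.9 RPKM on day 14 (log2 fold change -0.47 ± 0.10, adjusted p = 0.168). Cytosolic ribosomal proteins, which fill a larger share of the reads, had negative values in 48 of 56 tested genes, with a median of -0.05 and 1 gene below in all libraries (1.79%). No row of the table carries the symbol of a subunit that the mitochondrial genome encodes, so those transcripts are not analysed here.

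Genes of fatty acid metabolism were negative in 30 of 37 tested, with a median of -0.18. Of the 37, 5 lay below (13.5%, against 2.94% of all genes) and 1 above in all libraries (2.7%, against 2.29% of all genes). With day 14 replicate 3 left out, 8 lay below (21.6%, against 4.5% of all genes). FABP3, a fatty acid carrier of the cytosol, had 121, 474, 318 and 130.3 RPKM on day 20, against 579, 572, 714 and 786 RPKM on day 14, and day 20 replicates 1 and 4 lay far below the other 2 (log2 fold change -1.57 ± 0.41, adjusted p = 0.275). CPT1B, the gate for fatty acids into mitochondria in muscle, had 1.54, 3.59, 2.31 and 2.57 RPKM on day 20, against 5.62, 4.48, 3.65 and 6.76 RPKM on day 14 (log2 fold change -0.81 ± 0.21, adjusted p = 0.265). HADHA, of the trifunctional protein of beta-oxidation, had 109, 151, 134 and 147 RPKM on day 20, against 176, 185, 171 and 174 RPKM on day 14 (log2 fold change -0.39 ± 0.10, adjusted p = 0.279). ACSL5, which activates long-chain fatty acids, was the 1 above, with 20.8, 22.5, 16.2 and 19.7 RPKM on day 20, against 11.3, 15.1, 13.7 and 12.5 RPKM on day 14 (log2 fold change 0.55 ± 0.12, adjusted p = 0.168). FITM2, which the endoplasmic reticulum needs to bud off lipid droplets, had 13.9, 11.8, 12.8 and 12.5 RPKM on day 20, against 23.5, 19.2, 17.9 and 18.8 RPKM on day 14, and was among the genes outside the lists with the smallest p for a lower level (log2 fold change -0.59 ± 0.10, adjusted p = 0.0733). On the list of cholesterol synthesis and uptake, 32 of 40 tested genes were on the negative side, with a median of -0.24, and 0 were apart in all libraries. Without day 14 replicate 3, 8 of the 40 lay below (20%, against 4.5% of all genes). HMGCS1, an early enzyme of the pathway, had 523, 977, 996 and 554 RPKM on day 20, against 1154, 1038, 881 and 1209 RPKM on day 14. Day 20 replicates 2 and 3 were the high ones of their day and lay within the range of day 14.

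**Figure D4:**
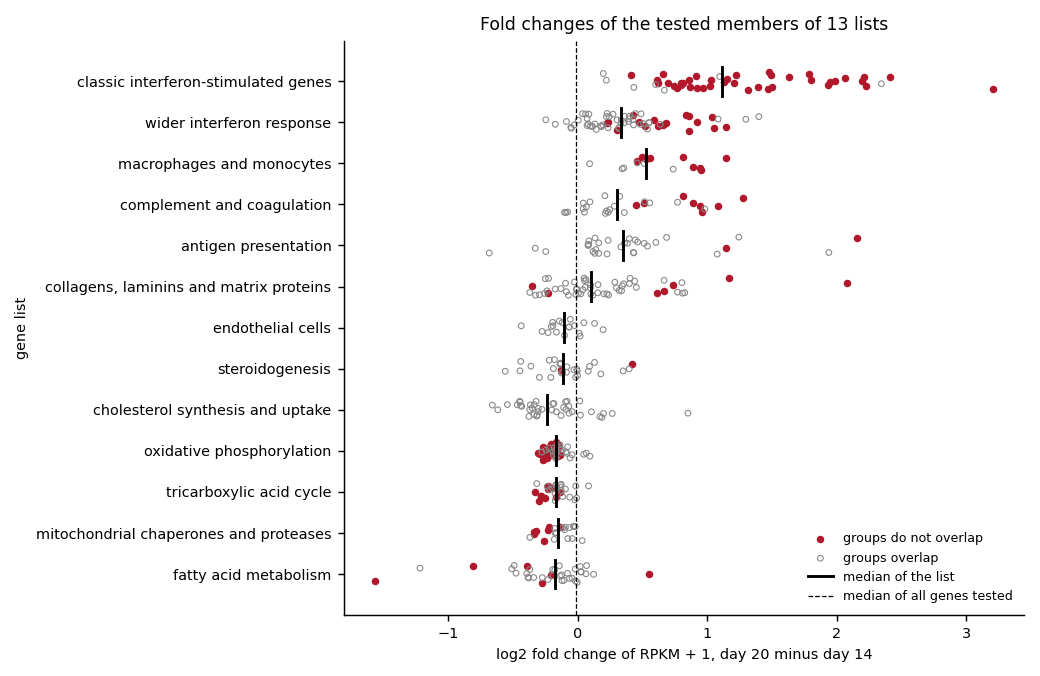
Log2 fold changes, day 20 minus day 14, of the tested members of 13 lists, filled where the groups did not overlap and open where they did, with the median of each list as a bar and that of all genes (-0.02) as a dashed line. The interferon, macrophage and complement lists lie to the right with wide spread, and the 3 lists of mitochondrial genes lie in a narrow band to the left, at medians of -0.15 to -0.17.

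Steroidogenic genes mostly overlapped between the days. Of 29 tested, 22 had negative values with a median of -0.12, and 1 lay above and 1 below in all libraries (3.45% each). Over all genes those shares were 2.29% and 2.94%. Up to 3 lay below without a single library, namely without day 20 replicate 4 or day 14 replicate 3. These were 10.3%, against 4.8% and 4.5% of all genes. STAR, which brings cholesterol into mitochondria, had 2826, 2149, 3508 and 3919 RPKM on day 20, against 2532, 3009.8, 1953 and 1860.4 RPKM on day 14, a positive value with overlap (log2 fold change 0.40 ± 0.23, adjusted p = 0.686). SRD5A1, a steroid 5 alpha-reductase, had 14.8, 14.5, 17.2 and 19.5 RPKM on day 20, against 12.7, 13.3, 10.9 and 11.4 RPKM on day 14 (log2 fold change 0.42 ± 0.11, adjusted p = 0.275). PGR, the progesterone receptor, was low on both days at 1.13 ± 0.0911 RPKM on day 20 and 1.34 ± 0.123 RPKM on day 14. PTGFR, the receptor for prostaglandin F2 alpha, had 346, 526, 446 and 262 RPKM on day 20, against 413, 395, 446 and 647 RPKM on day 14 (log2 fold change -0.28 ± 0.23, adjusted p = 0.805). Markers of luteal cells summed to 17780 to 21370 RPKM on day 20 and 20000 to 22160 on day 14, and the part of luteal cell content in the mitochondrial differences was not tested.

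Of 19 tested genes of neuropeptides and peptide processing, 2 lay below in all libraries (10.5%, against 2.94% of all genes) and 9 had positive values. The 2 were OXT and AVP. OXT, the precursor of luteal oxytocin, had 1536, 1929, 2335 and 1033 RPKM on day 20, against 3652, 3106, 4136 and 5892 RPKM on day 14. The highest animal of day 20 was below the lowest of day 14, and the mean was 0.407 times that of day 14 (log2 fold change -1.32 ± 0.28, adjusted p = 0.168). AVP, the neighbouring vasopressin gene, was near the filter, with 1.36, 0.385, 1.603 and 0.364 RPKM on day 20, against 2.23, 2.69, 3.57 and 2.63 RPKM on day 14 (log2 fold change -1.02 ± 0.24, adjusted p = 0.213). EREG and TNFAIP6 were chosen for their large differences. EREG (epiregulin), a ligand of the epidermal growth factor receptor, had 8.07, 3.54, 2.88 and 1.37 RPKM on day 20, against 17.2, 9.91, 12.2 and 27.1 RPKM on day 14 (log2 fold change -1.90 ± 0.42, adjusted p = 0.177). TNFAIP6, which binds hyaluronan in the matrix of the ovulating follicle, had 17.1, 19.3, 11.6 and 8.05 RPKM on day 20, against 20.6, 34.7, 40.3 and 39.1 RPKM on day 14 (log2 fold change -1.23 ± 0.29, adjusted p = 0.213). Values of day 20 spanned more than 2-fold for each of the 4, and none passed.

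Among genes of blood vessels, 3 of 43 tested angiogenic factors lay below in all libraries (6.98%, against 2.94% of all genes) and 0 above. Without day 14 replicate 2, 6 lay below (14%, against 5.52% of all genes). Without day 14 replicate 3, 3 lay above (6.98%, against 4.7% of all genes). APLNR, the receptor of apelin on sprouting vessels, had 13.2, 14.4, 16.5 and 16.9 RPKM on day 20, against 24.6, 19.2, 38.2 and 50.5 RPKM on day 14 (log2 fold change -0.98 ± 0.26, adjusted p = 0.288). NOS2, the inducible nitric oxide synthase, had 2.84, 3.01, 3.82 and 4.16 RPKM on day 20, against 5.12, 5.202, 5.96 and 8.89 RPKM on day 14 (log2 fold change -0.69 ± 0.17, adjusted p = 0.245). NRP1, a co-receptor of VEGF, had 113, 96.9, 103 and 110.3 RPKM on day 20, against 130.5, 113, 128 and 134 RPKM on day 14 (log2 fold change -0.25 ± 0.08, adjusted p = 0.353). BCL6B, a repressor enriched in endothelium, had 10.8, 10.5, 12.2 and 11.1 RPKM on day 20, against 14.8, 19.97, 19.6 and 26.6 RPKM on day 14 (log2 fold change -0.78 ± 0.15, adjusted p = 0.133). For APLNR and BCL6B the animals of day 14 were spread widely and those of day 20 were close together. VEGFA itself had 147, 113, 165 and 115 RPKM on day 20, against 117, 139, 137 and 206 RPKM on day 14, and its log2 fold change of -0.13 turns positive without day 14 replicate 4. PECAM1, a marker of all endothelium, had 36.997, 29.9, 33.2 and 33.3 RPKM on day 20, against 34.8, 26.6, 43.9 and 36.3 RPKM on day 14. Endothelial markers summed to 1068 to 1234 RPKM on day 20 and 982 to 1392 on day 14, and 0 of 19 tested did not overlap.

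Cytokines and chemokines had positive values in 22 of 24 tested genes, with a median of 0.34. In all libraries 1 lay above (TNFSF10) and 1 below (XCL1), or 4.17% each, against 2.29% and 2.94% of all genes. TNFSF10 stands on the wider interferon list. Of the 19 genes on neither interferon list 0 lay above, with a median of 0.255. Of all 24, 5 lay above without day 20 replicate 3 (20.8%, against 4.22% of all genes). The count was 4 without day 14 replicate 3 (16.7%, against 4.7%) and 3 without day 14 replicate 1 (12.5%, against 3.28%). CXCL9, a chemokine that interferon gamma induces, had 6.89, 10.8, 2.83 and 9.43 RPKM on day 20, against 5.13, 3.21, 5.94 and 3.51 RPKM on day 14, with overlap (log2 fold change 0.55 ± 0.34, adjusted p = 0.717). Genes of cell division were negative in 35 of 42 with a median of -0.14, and 1 lay below (2.38%, near the 2.94% of all genes). Without day 20 replicate 1, 9 of the 42 lay below (21.4%, against 5.18% of all genes). The 1 with all libraries was RRM1, a subunit of the enzyme that makes deoxyribonucleotides, with 17.8, 18.2, 15.02 and 18.3 RPKM on day 20, against 18.5, 21.2, 21.5 and 22.5 RPKM on day 14 (log2 fold change -0.26 ± 0.09, adjusted p = 0.429). Genes of glycolysis and glucose uptake were negative in 23 of 31, and 3 lay below (9.68%, against 2.94% of all genes). With median-ratio scaling 1 did (3.23%, against 2.5%). Without replicate 2 of day 20 or of day 14, 5 did (16.1%, against 4.97% and 5.52%). LDHB, a lactate dehydrogenase subunit, was 1 of the 3. Antioxidant genes had 1 above and 3 below of 37 tested (8.11% below, against 2.94% of all genes), of which median-ratio scaling left 0 below. Among 29 tested growth factors and receptors of the EGF, IGF and FGF families, IGF2R, which takes IGF2 to lysosomes, had 50.2, 52.95, 62.7 and 45.1 RPKM on day 20, against 65.8, 70.9, 64.98 and 65.96 RPKM on day 14, below in all animals (log2 fold change -0.35 ± 0.10, adjusted p = 0.31). Genes of protein folding in the endoplasmic reticulum had 0 of 28 apart in either direction. Without day 20 replicate 2, 2 lay below (7.14%, against 4.97% of all genes). None were apart among 28 tested genes of luteal hormone receptors and cyclic AMP signalling with all libraries.

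Of the other lower genes with the smallest p, CNKSR3, a scaffold of aldosterone action in the kidney, had 35.5, 45.2, 35.3 and 38.3 RPKM on day 20, against 69.3, 50.04, 54.8 and 63.3 RPKM on day 14 (log2 fold change -0.60 ± 0.12, adjusted p = 0.144). FCGBP, a mucin-like protein, lay near the filter with 0.873, 1.29, 0.901 and 1.04 RPKM on day 20, against 1.94, 2.25, 2.04 and 2.53 RPKM on day 14, and passed with voom (adjusted p = 0.0385). ZNF711, TRIM24 and C23H6orf136 did not overlap either, at adjusted p = 0.132, 0.168 and 0.0733. Immediate early genes, which respond quickly to many stimuli, were positive in 30 of 39 with a median of 0.25. In all libraries 1 lay above (2.56%, near the 2.29% of all genes). Without day 14 replicate 4, 10 of the 39 lay above (25.6%, against 3.39% of all genes). FOS had 18.6, 43.9, 126 and 36.4 RPKM on day 20, against 10.7, 9.46, 12.2 and 119 RPKM on day 14, with day 14 replicate 4 and day 20 replicate 3 high, and its part in the differences of other genes was not tested.

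The levels on days 17 and 23 place day 20 in the course of the series, with day 14 libraries shared by any comparison with them. ISG15 averaged 21.2 ± 7.902 RPKM on day 14, 119 ± 161 RPKM on day 17, 196 ± 46.7 RPKM on day 20 and 169.5 ± 71.5 RPKM on day 23, and ranged over 26.8 to 359.5 on day 17 and 69.3 to 238 on day 23. SLC25A15 averaged 13.9 ± 1.67 RPKM on day 14, 11.7 ± 3.12 RPKM on day 17, 7.23 ± 0.905 RPKM on day 20 and 10.4 ± 2.58 RPKM on day 23, so that day 20 had the lowest mean of the 4 days. C1QB averaged 58.9 ± 9.14 RPKM on day 14, 86.6 ± 40.7 RPKM on day 17, 115 ± 20.1 RPKM on day 20 and 70.7 ± 12.5 RPKM on day 23, and CEBPD 54.6 ± 6.896 RPKM on day 14, 63.3 ± 31.8 RPKM on day 17, 143 ± 49.99 RPKM on day 20 and 67.1 ± 23.4 RPKM on day 23. Both had their highest mean on day 20, although single animals of day 17 reached 121 RPKM for C1QB and 109 for CEBPD. RGS1 averaged 3.805 ± 0.418 RPKM on day 14, 1.86 ± 0.958 RPKM on day 17, 9.14 ± 3.396 RPKM on day 20 and 3.93 ± 1.89 RPKM on day 23, where the highest animal of the other days, at 5.85 on day 23, came just above the lowest of day 20, at 5.80. XCL1 averaged 30.5 ± 16.7 RPKM on day 14, 7.64 ± 6.19 RPKM on day 17, 7.15 ± 3.44 RPKM on day 20 and 8.44 ± 5.65 RPKM on day 23, with every later day below day 14. OXT averaged 4197 ± 1206 RPKM on day 14, 2565 ± 892 RPKM on day 17, 1708 ± 556 RPKM on day 20 and 1304 ± 528 RPKM on day 23, and EREG 16.6 ± 7.62 RPKM on day 14, 3.64 ± 1.85 RPKM on day 17, 3.96 ± 2.89 RPKM on day 20 and 1.76 ± 0.661 RPKM on day 23. NDUFS7 averaged 99.4 ± 3.08 RPKM on day 14, 97.04 ± 22.2 RPKM on day 17, 80.2 ± 3.57 RPKM on day 20 and 87.9 ± 8.82 RPKM on day 23 and ATP5F1B 657 ± 6.77 RPKM on day 14, 613 ± 46.9 RPKM on day 17, 547 ± 36.95 RPKM on day 20 and 579 ± 39.1 RPKM on day 23, again with their lowest mean on day 20. These are descriptions without a test.

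**Figure D5:**
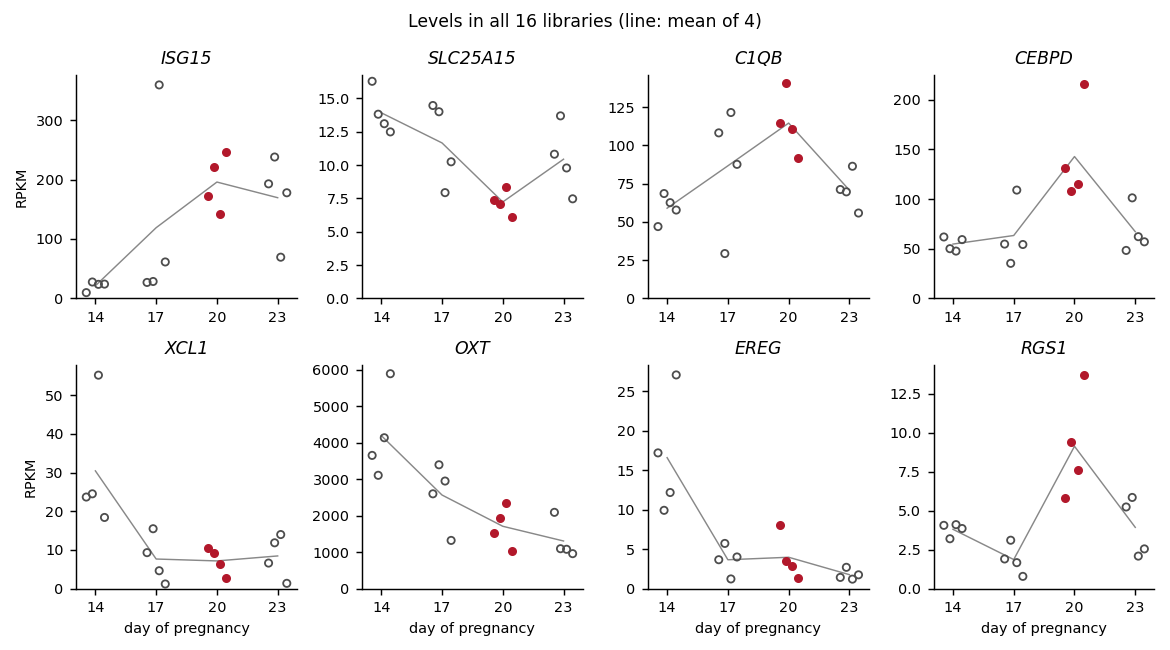
RPKM in each of the 16 libraries by day of pregnancy for 8 genes, with the 4 libraries of day 20 in red, those of the other days in grey and a line through the means. ISG15 is high in 1 animal of day 17 (359.5) and stays high on day 23, CEBPD, C1QB and RGS1 have their highest mean on day 20, and XCL1, OXT and EREG are lower on each later day than on day 14.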

How the data were processed

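Messenger RNA of bovine corpus luteum was sequenced from stranded TruSeq libraries of total RNA with RQI above 8.5, per the labels' protocols. The authors deposited 1 table of RPKM values per gene for 16 libraries, with Ensembl identifiers and, for all but 6813 of 27233 rows, a symbol. Of tools, HISAT2 2.1.0, featureCounts 1.5.3, bedtools 2.26.0, DESeq2 and FastQC are listed, with the build ARS-UCD1.2, per the submitters' processing notes. Whether counting used strand is not given in these sources. The table's p-value and adjusted p-value columns, which the authors deposited for a comparison that the headers do not name, were not used.

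Samples were grouped by the day in their labels. Genes with RPKM of at least 1 in 4 of 8 libraries were fitted as log2(RPKM + 1) with limma 3.58.1 in R 4.3.3, with an intensity trend, 6 residual degrees of freedom and Benjamini-Hochberg adjustment over 12945 genes. The step was tested on simulated data. RPKM values of all 27233 genes were whole multiples of 1 read, within 0.001 of a read, and the recovered reads went to voom. Lists were described by counts and medians. Genes named were those past the threshold, the 15 with the smallest p on either side outside the interferon lists, the leading and most abundant members of each list and a set of landmark genes. A few genes that this rule names are not reported here. Genes of the largest changes and gene families were added after their values were seen. Members, lists, and the choice of an 8-library fit were made with earlier results of these data known. Alternatives covered pseudocounts of 0.1 and 0.5, filters, scaling, weights, the libraries fitted and each library left out. Plots used matplotlib 3.10.9, with pandas 2.3.3 in Python 3.11.15.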

Additional observations from a re-analysis of the deposited data

Results flagged for a closer look

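In 29 of 406 groups of 4 libraries, from 203 genes named in the text or the lists, 1 library stood apart from the other 3 by a gap past Dixon's 95% critical value for 4 samples. That is 7.14% of the groups, where chance gives about 1 in 20. The same library can stand apart in several genes. No explanation was tested for any of them.

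Replicate 1 of day 20 was the highest of its day for FKBP5 at 39.3 RPKM, where the others had 29.1 to 30.1, and for GPBAR1 at 8.03 RPKM, where the others had 2.05 to 2.97. The same library was highest for AFG3L2 at 35.6 RPKM, where the others had 32.7 to 33.1. Replicate 2 of day 20 was the highest of its day for IFIT1 at 31.3 RPKM, where the others had 14.3 to 16.1, and for MX2 at 16.2 RPKM, where the others had 5.06 to 5.26. It was also highest for TNFSF10 at 57.1 RPKM, where the others had 27.96 to 32.6, and for HP at 11.02 RPKM, where the others had 7.61 to 8.08. The same library was highest for TAP1 at 112 RPKM, where the others had 74.7 to 80.4. Replicate 3 of day 20 was the highest of its day for TNXB at 4.396 RPKM, where the others had 2.66 to 2.94. Replicate 3 of day 20 was the lowest of its day for RRM1 at 15.02 RPKM, where the others had 17.8 to 18.3. Replicate 4 of day 20 was the highest of its day for IFI27 at 867 RPKM, where the others had 482 to 533, and for PER1 at 60.3 RPKM, where the others had 37.9 to 40.6. It was also highest for GEM at 223 RPKM, where the others had 100.01 to 121. Replicate 4 of day 20 was the lowest of its day for GOT2 at 177 RPKM, where the others had 208 to 212. Replicate 1 of day 14 was the highest of its day for CD2 at 2.24 RPKM, where the others had 1.198 to 1.297, and for LONP1 at 152 RPKM, where the others had 107 to 108. The same library was highest for TRAP1 at 45.2 RPKM, where the others had 39.02 to 39.5, and for LRRC4 at 1.44 RPKM, where the others had 0.629 to 0.718. Replicate 1 of day 14 was the lowest of its day for MDH1 at 134 RPKM, where the others had 151 to 154. Replicate 2 of day 14 was the highest of its day for PSME1 at 160.2 RPKM, where the others had 117 to 119, and for IGF2R at 70.9 RPKM, where the others had 64.98 to 65.96. Replicate 2 of day 14 was the lowest of its day for OPA1 at 15.7 RPKM, where the others had 17.6 to 18.01. Replicate 3 of day 14 was the highest of its day for XCL1 at 55.2 RPKM, where the others had 18.4 to 24.5, and for WNT5A at 8.45 RPKM, where the others had 7.29 to 7.46. The same library was highest for CSRP3 at 16.6 RPKM, where the others had 5.17 to 6.01, and for LY6E at 8.97 RPKM, where the others had 4.61 to 4.75. Replicate 4 of day 14 was the highest of its day for FOS at 119 RPKM, where the others had 9.46 to 12.2, and for STC2 at 6.39 RPKM, where the others had 1.32 to 1.71. It was also highest for HP at 5.88 RPKM, where the others had 1.65 to 2.23.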

How the results depend on the processing

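The number of calls depended on the settings. Against the 20 genes called, 8 passed with no filter on low values (6 classic interferon-stimulated genes and 1 outside both interferon lists), 0 with all 16 libraries in 1 model (0 and 0), and 36 with the 15 libraries other than day 17 replicate 3 (12 outside both lists). With the replicate block, 3 genes passed in all (3 classic, 0 outside), namely ISG15, OAS1Y and UBA7, so only 2 of them were among the 20. Replicate numbers are in the titles. Same-numbered libraries of the days correlated in their deviations at 0.06, -0.06, -0.26 and 0.05, and other-numbered pairs at -0.128 to 0.175. Genes are not independent of each other, so these values do not settle whether same-numbered samples share more than a number. That was not tested. Leaving out 1 library gave 0 to 22 calls in all, 0 to 13 on the classic list and 0 to 7 outside both lists, the lowest without day 20 replicate 4. Pseudocounts, scaling, weights, spread options and voom gave 18 to 21 calls. The causes were not tested. None of the 20 called genes changed sign under any alternative in which it was fitted, which were 21 for each but SIGLEC1, which has 20 since its mean lies under the RPKM of 5 of the stricter filter. Their groups did not overlap, so leaving out a library could not have changed a sign. SLC25A15 missed the threshold in 10 of them, with adjusted p from limma of 0.0666 without day 14 replicate 3 to 0.136 with all 16 libraries. Members of a list that did not overlap numbered 39 to 41 for the classic list, 9 to 13 for macrophages and 15 to 26 for oxidative phosphorylation under other scalings and without single libraries, where leaving out a library can only add members. Over all genes, median-ratio scaling gave 357 above and 323 below, and quantile normalization 295 and 421. Depth limited few of the genes named, since 1 read was a small step beside their RPKM. Promoter motifs, though planned, were not run.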
